A study of Mus musculus with 6 samples.

Results

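Processed pseudogenes are copies of messenger RNAs that were reverse transcribed and inserted back into the genome, so they carry the spliced sequence of a parent gene but usually not its promoter. The 254 members described here are loci that the deposited table types as processed pseudogenes, that reached a mean of at least 0.5 FPKM over both fractions, and that share no locus entry with a protein-coding gene. They were chosen by that type and level out of 2208 processed pseudogenes, 1561 of them outside protein-coding loci, in a table of 28660 loci without the spike-ins. FPKM, the unit of the table, is a count of fragments divided by transcript length and by library size. The members' levels are therefore part of how they were chosen. The rule does not name the balance between fractions but bears on it, since a locus scarce in 1 fraction passed only if it was abundant enough in the other.

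The RNA came from nuclei of HL-1 cells, a cultured mouse atrial cardiomyocyte line that was grown with norepinephrine. Detergent released the nuclei, which were fractionated into a soluble nuclear extract and a pellet that holds the chromatin, with 3 libraries from each; ribosomal RNA was depleted and the libraries were directional. The sample titles name no genetic change, and by them the 2 groups differ only in the fraction. ERCC spike-ins, synthetic RNAs of known sequence, went into every fraction. The table holds 1 pooled value per fraction, so no spread between replicates can be given, no test across samples was possible, and every fold stands without a replicate error. Depth is unknown, because the values are estimated FPKM with no counts beside them.

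Most processed pseudogenes have no promoter of their own and many are silent. Where RNA is assigned to one, it may be a transcript of the copy, part of a longer transcript that runs through it, or fragments of the parent message placed on a near-identical sequence. Copies of ribosomal protein genes are the best-known large group in mammals, because ribosomal protein messages are abundant in the germ line.

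A start site was given by RefSeq (GRCm38.p6, the same build as mm10) for 1 member, AA414768, and its upstream window is shown because it is the one place where the sequence in front of a member can be read. RefSeq lists AA414768 as protein-coding, against the type in the table. The window lies at chrX:12936623-12936922 on the plus strand, from 250 bases before to 50 bases after the start. CG dinucleotides are in capitals.
AA414768: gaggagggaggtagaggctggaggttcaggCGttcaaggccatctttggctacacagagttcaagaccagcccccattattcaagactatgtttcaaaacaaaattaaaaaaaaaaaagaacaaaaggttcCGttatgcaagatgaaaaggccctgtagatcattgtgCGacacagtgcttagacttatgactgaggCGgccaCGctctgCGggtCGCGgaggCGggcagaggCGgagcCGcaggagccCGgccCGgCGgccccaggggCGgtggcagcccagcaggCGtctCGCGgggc
The window holds 18 CG dinucleotides, against a median of 7 over all 32851 RefSeq windows of that length, and 57% of its bases are G or C. That CG count is not unusual, since 71.9% of all windows hold as many or fewer and the rest hold more. GGGCGG was found 1 time on the 2 strands together, and 35.7% of all windows hold it. TATAAA and CCAAT, searched on both strands, were not in this window, while 13.6% and 37.4% of all windows hold them. The locus had 6.90 FPKM in the soluble extract and 0.927 in the pellet.

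Technical scatter and cell identity bear on every value below. The pellet FPKM was multiplied by 3.37, the least-squares slope through the origin that relates the soluble to the pellet values of the 82 spike-ins, before a fold was taken. This is called the spike-in scale, and every log2 fold on it is 1.75 higher than on the FPKM scale. At a mean of 0.5 FPKM or more, the log2 folds of 47 spike-ins had an SD of 0.12, and for the 16 between 0.05 and 0.5 FPKM the SD was 0.37. These spike-ins are grouped by the mean of both fractions. In 139 members the lower fraction alone was between 0.05 and 0.5 FPKM, so the SD of 0.37 does not measure the scatter of their folds. All 9 matched of 10 cardiomyocyte markers reached a mean of 0.5 FPKM, with the atrial light chain gene Myl7 at 625.0. Nppa was the lowest of them at 0.918, with 1.63 FPKM in the soluble extract and 0.208 in the pellet. No row matched for Ryr2, Col1a1 or Tubb3. The same minimum was met by 3 of 4 matched fibroblast markers, 3 of 3 of smooth muscle, 2 of 4 of endothelium, 1 of 3 of immune cells and 1 of 2 of neurons. Lum, Cdh5, Ptprc and Snap25 had means near 0, while Col3a1 of fibroblasts (213.7) and Tagln of smooth muscle (223.8) were abundant. Summed soluble and pellet FPKM were 345.8 and 88.0 for fibroblast markers and 383.4 and 67.0 for smooth muscle markers, beside 3112 and 594.6 for cardiomyocyte markers. Their part in the results was not tested.

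The processed pseudogenes lay on both sides of the fractionation. On the spike-in scale 107 of 254 (42.1%) were at least 2-fold lower in the pellet, against 10.5% of all 13917 loci at the same level minimum. At least 2-fold higher were 59 (23.2%), against 31.9% of all loci, and 88 lay within 2-fold. Of the protein-coding loci among them, 23.97% were higher and 10.6% lower. The members' higher share was thus near that of protein-coding loci, while their lower share was not. A large lower share was not particular to the members. Of 20 loci typed as transcribed processed pseudogenes 7 were lower (35.0%) and 6 higher. Of 36 unprocessed pseudogenes 12 were lower (33.3%) and 16 higher. The members and all loci are unlike in level and length. All loci, 11397 of them protein-coding, had a median level of 7.81 FPKM and a median length of 29823 bp. The members had 1.35 FPKM and 497 bp. Of the 107 lower members 67 met 0.5 FPKM in the soluble extract alone, so their direction is bound up with how they passed, and among the 113 members that met it in both fractions 36 were higher and 40 lower (median -0.31). The median log2 fold was -0.76 (interquartile range -1.55 to 0.59), while it was 0.41 over all loci. On the FPKM scale 34 were higher and 193 lower, against 9.66% and 61.2% of all loci, with a median of -2.51. Because the scales differ by a constant log2 of 1.75, those 34 higher and the 107 lower keep their side on both by arithmetic alone.

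**Figure D1:**
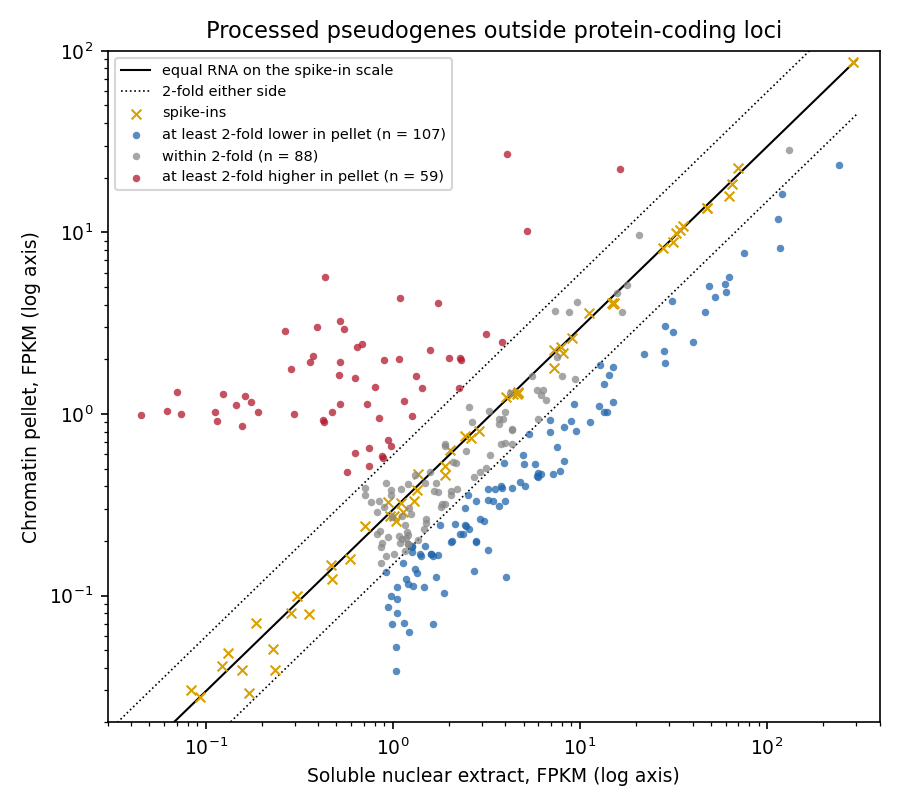
Each point is 1 of 254 processed pseudogenes, with its FPKM in the soluble extract on the x axis and in the pellet on the y axis (both log axes, 1 pooled value per fraction). Crosses are the spike-ins that fall within the axes, the solid line marks equal RNA on the spike-in scale and the dotted lines 2-fold either side; 107 points lie below the band and 59 above it.

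The members' folds were densest on the soluble side and spread far on the pellet side. Between log2 folds of -2 and -1 there were 88 members, and 17 lay between -3 and -2. On the other side 18 lay between 1 and 2, 13 between 2 and 3, 7 between 3 and 4, and 21 at or above 4, which is 16-fold. The range ran from -3.24 for Gm6404 to 6.21 for Gm6806.

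Processed pseudogenes that share a locus with a protein-coding gene are the most similar set. In that set 85 of 166 were higher and 49 lower, the median was 1.33, and 29 loci had folds between 4 and 5, where 14 members lay. On the FPKM scale their median was -0.42. Because each fraction is a single value, the difference between the sets was not tested. From a mean of 10 FPKM upwards the sets lay close together, with 18 of 25 members lower (median -1.54) and 13 of 19 of the other set lower (median -1.64).

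**Figure D2:**
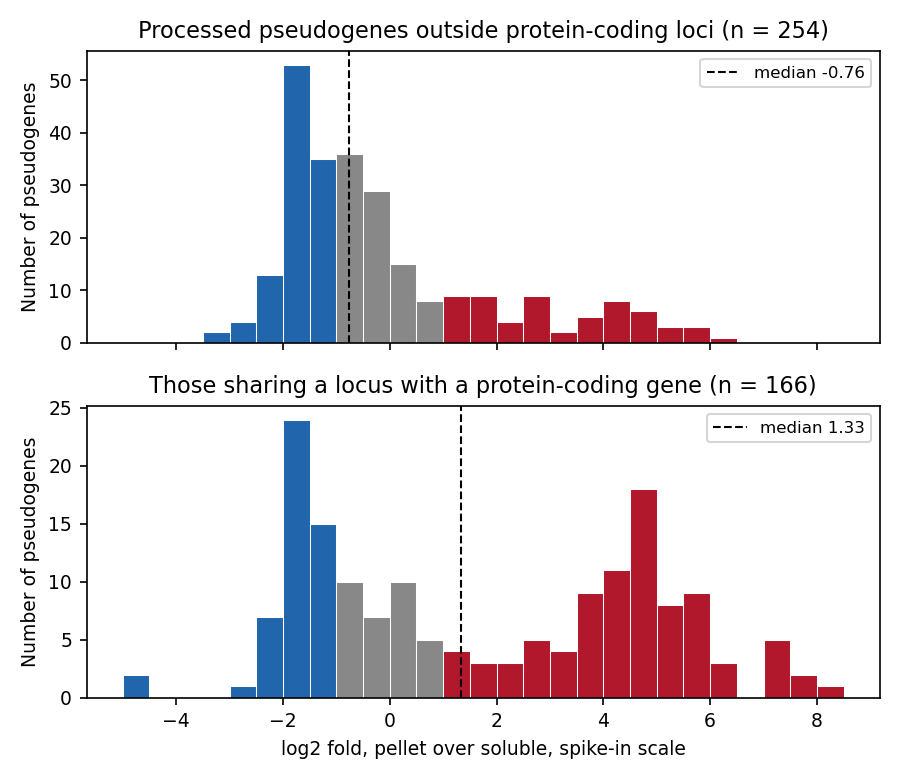
Histograms of the log2 fold, pellet over soluble on the spike-in scale, in bins of 0.5, for the 254 members (top) and the 166 processed pseudogenes that share a locus with a protein-coding gene (bottom). Colours mark at least 2-fold lower (blue), within 2-fold (grey) and at least 2-fold higher (red), and dashed lines are the medians, -0.76 and 1.33.

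The share of higher members was smaller at the upper levels, without a steady order at the lower ones. Of the 97 with a mean between 0.5 and 1 FPKM, 27 were higher and 31 lower, and of the 64 between 1 and 2 FPKM, 21 were higher and 22 lower. Of the 52 between 2 and 5 FPKM, 8 were higher and 25 lower. Of the 16 between 5 and 10 FPKM 1 was higher and 11 lower, and of the 25 at 10 FPKM or more, 2 were higher and 18 lower. Across the 254 members the Spearman correlation of level and fold was -0.27, where both come from the same FPKM values. The level rule takes the mean of both fractions, so a member near it must be well above 0.5 FPKM in at least 1 fraction when it is scarce in the other. Besides the 113 that met it in both fractions, it was met by the soluble value alone in 119 (1 higher, 67 lower) and by the pellet value alone in 22, all of which were higher. The folds of these last 2 groups follow from how they passed, so their counts support nothing.

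Around the minimum itself, the members just inside were Gm12455 (mean 0.505 FPKM), Gm8666 (0.508) and Gm12990 (0.514). Gm12455 had 0.156 FPKM in the soluble extract and 0.854 in the pellet. Gm8666 had 0.864 and 0.152, and Gm12990 had 0.114 and 0.914. Just outside were Gm14046 (0.492), Gm12293 (0.482) and ENSMUSG00000103411.1 (0.482).

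Of the 10 members with the highest mean level, 9 were lower in the pellet and 1 lay within 2-fold. Their levels are for bulk RNA, in which more cells with a transcript and more RNA per cell cannot be told apart. Gm12328, a 197 bp locus on chromosome 11, led with 241.7 soluble and 23.5 pellet FPKM (-1.61 on the log2 scale). Gm12913 on chromosome 4 had 131.7 and 28.5 FPKM and lay within 2-fold at -0.45. Gm15459 on chromosome 5 had 119.7 and 16.3 FPKM (-1.12).

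RP23-436F15.2, a locus of 132 bp on chromosome 3, had 117.6 FPKM in the soluble extract and 8.20 in the pellet (-2.09). Hist3h2bb-ps, by its name a copy of a histone H2B gene, had 114.5 and 11.9 FPKM (-1.51). It lies 173 bp from Hist3h2a, a histone H2A gene with a log2 fold of -1.67. Dynlt1-ps1, named for a dynein light chain, had 75.2 and 7.68 FPKM (-1.54). The 10 most abundant members in the soluble extract held 49.6% of the members' summed soluble FPKM of 2087. Of the 33 members with at least 10 FPKM in the soluble extract, 1 was at least 2-fold higher in the pellet, Gm11874, singled out after its values were seen (16.5 soluble and 22.2 pellet FPKM). Of the 7 members with at least 10 FPKM in the pellet, 3 were higher, and either count leans towards the fraction it selects on. The fold of Gm11874, 2.19, becomes 0.43 on the FPKM scale.

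Copies of known parents were set beside the parent genes. A parent gene was matched through the name, the current symbol or a RefSeq synonym for 38 members, with 31 distinct parents. The parent of the other 216 is not analysed here. They include Hist3h2bb-ps and Dynlt1-ps1, whose names point to a parent that was not matched to a gene symbol. Among those 38, 3 were higher and 24 lower (median -1.55). A parent at the level minimum was matched in the table for 36 members, with 30 distinct parents, of which 16 were lower and 1 higher. Copies of the same parent share sequence and are not independent. Copies that met 0.5 FPKM in the soluble extract alone lean lower by how they passed.

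The copies lay close to their parents in balance and far below them in level. In 30 of 36 pairs the log2 folds of copy and parent differed by less than 1, which is 2-fold. The median difference, copy minus parent, was -0.39 (interquartile range -0.71 to 0.03), and 25 copies lay further towards the soluble side than the parent. This difference does not depend on the spike-in factor, but it does on the level minimum and on a pseudocount. It was -0.017 over 86 pairs at a minimum of 0.1 FPKM, turned to 0.11 over 184 pairs with no minimum, and was -0.034 with a pseudocount of 1 FPKM. Requiring 0.5 FPKM in both fractions left 16 pairs, with a median difference of -0.29. No copy reached the FPKM of its parent in either fraction, and the median copy had 3.33% of its parent's soluble FPKM. That share ran from 0.0875% for Rps15a-ps4 to 71.2% for Llph-ps2. Whether fragments of the parent messages were placed on the copies was not tested.

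**Figure D3:**
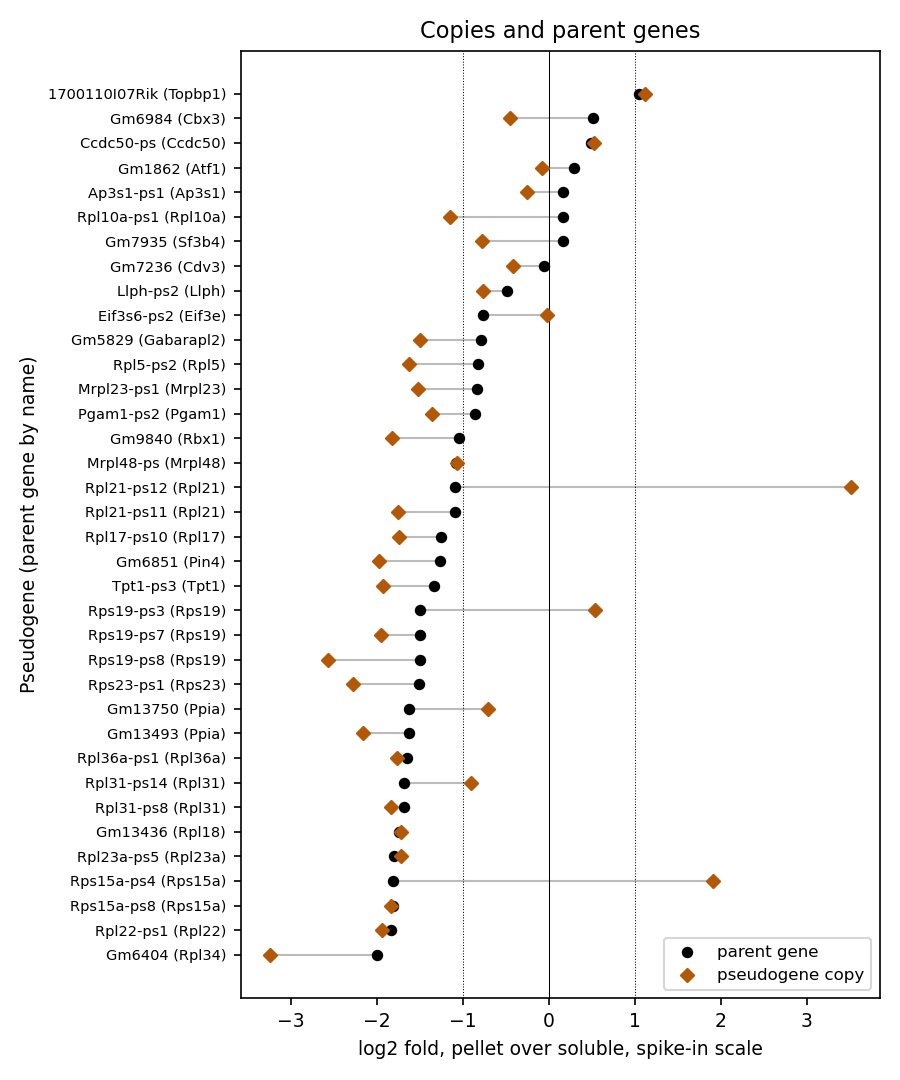
Log2 fold, pellet over soluble on the spike-in scale, of 36 processed pseudogenes (diamonds) and of their parent genes (black points), ordered by the parent's fold. Grey lines join each pair; 30 pairs differ by less than 1, and Rpl21-ps12, Rps15a-ps4 and Rps19-ps3 lie furthest to the right of their parents.

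Ribosomal protein genes, which encode the structural proteins of the cytosolic ribosome, were the parents of 18 members. Of these copies 14 were lower in the pellet and 2 higher, with a median of -1.75. Several of the lower ones, among them Gm6404, Rps19-ps8 and Rpl21-ps11, met 0.5 FPKM in the soluble extract alone. Their direction is bound up with how they passed. Of 85 tested genes with ribosomal protein symbols 76 were lower and 0 higher (median -1.54). Gm13436, with the RefSeq synonym Rpl18p, had 62.3 soluble and 5.65 pellet FPKM. Its log2 fold of -1.71 stood beside -1.74 for Rpl18, at 1407 and 125.0 FPKM.

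Rpl36a-ps1 had 59.8 and 5.22 FPKM, a log2 fold of -1.77, against -1.65 for Rpl36a. Rps15a-ps8 had 52.9 and 4.42 FPKM and a log2 fold of -1.83, against -1.81 for Rps15a. These 3 copies had between 4.43% and 22.3% of the soluble FPKM of their parents. Gm6404, now named Rpl34-ps2, had the lowest fold of all members (4.03 soluble and 0.126 pellet FPKM), -3.24 against -1.999 for Rpl34.

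On the spike-in scale the copies of Rpl21, and those of Rps15a, lay on opposite sides. Of the Rpl21 copies, Rpl21-ps11 met 0.5 FPKM in the soluble extract alone and Rpl21-ps12 in the pellet alone. The sides of these 2 follow from how they passed. Rpl21-ps11 had 1.29 soluble and 0.113 pellet FPKM (-1.75), while Rpl21-ps12 had 0.296 and 0.9998 FPKM (3.51), and Rpl21 itself had -1.09. RefSeq places a record of the name Rpl21-ps12 at this locus, while the list of current symbols gives the table's identifier the name Gm8724, so its parent is less certain than the others. Rpl21-ps12 lies within the RefSeq span of Iqsec1, a guanine nucleotide exchange factor gene, which had a log2 fold of 0.55. Rps15a-ps8 was soluble as described, whereas Rps15a-ps4 had 0.847 soluble and 0.948 pellet FPKM, a log2 fold of 1.92 that becomes 0.16 on the FPKM scale. RefSeq gives Rps15a-ps4 the synonym Lethe, the name of a noncoding RNA described as a regulator of NF-kappaB signalling. It lies 588 bp from Gmeb1, which had 1.16.

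Of the copies of Rps19, Rps19-ps8 had -2.56 (1.04 soluble and 0.0520 pellet FPKM) and Rps19-ps7 had -1.95 (13.4 and 1.03 FPKM). Rps19-ps3 had 0.54, from 9.62 soluble and 4.14 pellet FPKM. The parent Rps19 had -1.49. Rps19-ps3 lies 784 bp from Zfp933, a zinc finger gene with a log2 fold of 2.11. Rpl21-ps12, Rps15a-ps4 and Rps19-ps3 were the only 3 of the 36 copies that lay at least 2-fold further towards the pellet than their parent, by 4.60, 3.72 and 2.03 on the log2 scale. The 3 that lay at least 2-fold further towards the soluble side were Rpl10a-ps1 (difference -1.31), Gm6404 (-1.24) and Rps19-ps8 (-1.07).

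Of the 20 copies of other genes 10 were lower and 1 was higher. Tpt1-ps3, a copy of the translationally controlled tumor protein gene Tpt1, had 60.1 soluble and 4.70 pellet FPKM (-1.92), which in the soluble extract is 48.4% of Tpt1. Gm13493 and Gm13750 carry synonyms that name Ppia, the cyclophilin A gene (-1.63), and had -2.15 and -0.70. Pgam1-ps2, a copy of a phosphoglycerate mutase gene of glycolysis, had -1.36 against -0.86 for Pgam1. The record 1700110I07Rik, now named Topbp1-ps2 after the DNA damage checkpoint gene Topbp1, had 1.13 and its parent 1.05. On the FPKM scale these turn to -0.63 and -0.70. Gm6984, now Cbx3-ps6 after a heterochromatin protein gene, had -0.45 where Cbx3 had 0.52.

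Among members with a mean of 1 FPKM or more, most of the other lowest folds belonged to loci with no matched parent. Such loci made up 216 of all 254 members. Gm13226 on chromosome 4 had 40.4 FPKM in the soluble extract and 2.50 in the pellet (-2.26). Gm8648 on chromosome X had 28.4 and 1.90 FPKM (-2.15). Both were more than 4-fold lower in the pellet. Gm15148 (-2.56), Gm8260 (-2.42), Gm8692 (-2.25), Gm7363 (-2.20) and Gm5745 (-2.07) had soluble values between 2.71 and 7.81 FPKM, and their pellet values were below 0.5 FPKM.

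At the same minimum of 1 FPKM the 10 highest folds were of 13.5-fold or more. None of these 10 had a matched parent, but neither did 216 of all 254 members. Gm14926 on chromosome X had 0.432 soluble and 5.70 pellet FPKM (5.48). D11Bhm181e on chromosome 11 had 0.266 and 2.87 FPKM (5.19), and it lies 45 bp from the small nucleolar RNA gene Gm22947, which had 5.71. Gm28188 on chromosome 1 was the most abundant member in this group, with 4.05 and 27.1 FPKM (4.50). Its nearest locus, the long intergenic RNA Gm28187 at 12217 bp, had 4.83. Gm27248 (4.39), Gm2348 (4.37) and Gm7541 (4.23) followed, with 1.76 to 3.24 FPKM in the pellet. On the FPKM scale, where each log2 fold is lower by the constant 1.75, these 10 ran from 1.998 to 3.72. That all stay at least 2-fold higher there follows from the size of the folds they were picked for.

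**Figure D4:**
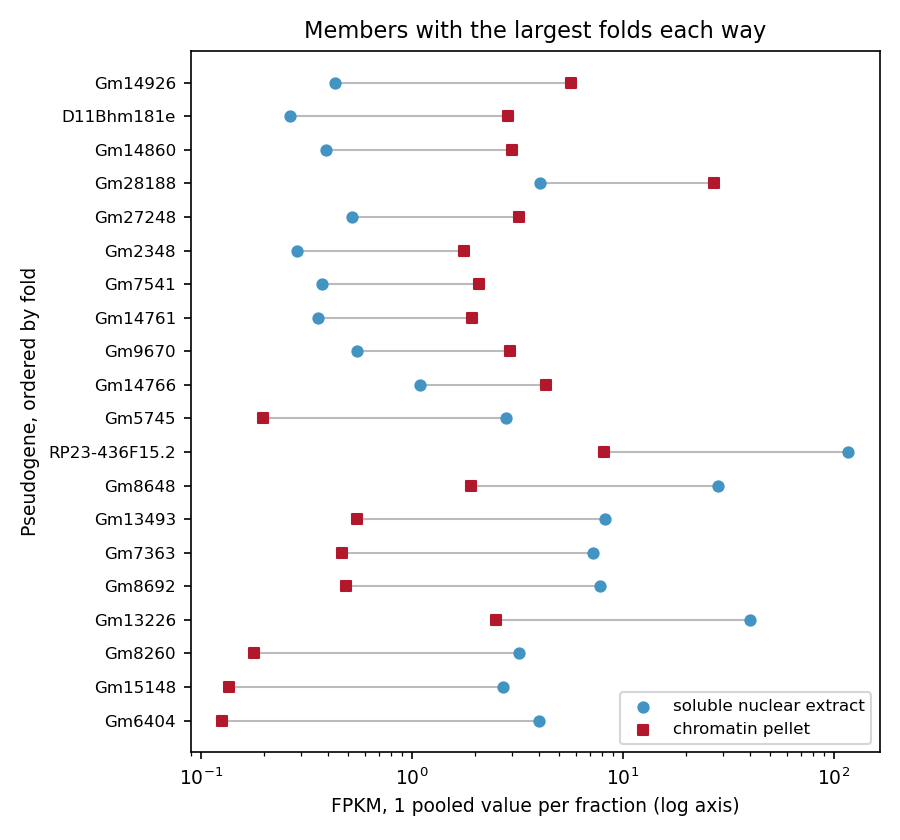
FPKM in the soluble extract (circles) and the pellet (squares) on a log axis, 1 pooled value per fraction, for the 10 members with the highest and the 10 with the lowest fold among those with a mean of 1 FPKM or more. The top 10 rows have the pellet value on the right and the bottom 10 have the soluble value there.

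Chromosome X held 43 of the 254 members (16.9%), against 3.78% of all loci at the level minimum and 17.5% of the 1561 processed pseudogenes outside protein-coding loci at any level. Its 43 members had a median of -0.25 (15 higher, 13 lower), and the 211 autosomal members had a median of -0.82 (44 higher, 94 lower). Over all loci at the minimum, 33.8% on chromosome X were higher and 15.2% lower, beside 31.8% and 10.4% on autosomes. The members' share of higher loci on chromosome X, 34.9%, was near that of all loci there, and their share of lower loci was 30.2%.

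The X inactivation centre, the region that controls silencing of an X chromosome through Xist, held 3 of the pellet-enriched members. Gm9670, Gm14860 and Gm9157 lie in the 54481 bp between the loci of Jpx and Ftx, noncoding RNAs known as activators of Xist. Gm9670 (chrX:103506812-103507589) begins 387 bp from the end of Jpx and had 0.550 soluble and 2.93 pellet FPKM, a log2 fold of 4.17. Gm14860 (chrX:103514922-103515350) had 0.392 and 3.01 FPKM (4.69).

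Gm9157 (chrX:103529483-103529707) had 1.74 and 4.11 FPKM (2.99). Jpx had 3.98 and 6.79 FPKM (2.53), and Ftx had 0.604 and 2.44 FPKM (3.77). The 3 pseudogenes and the 2 noncoding genes were thus all higher in the pellet, and the pseudogenes and Ftx stay at least 2-fold higher on the FPKM scale, where Jpx has 0.77. Jpx and Ftx are typed as long intergenic RNAs, and of 370 such loci at the level minimum 67.3% were higher. Of the pseudogenes, Gm14860 met 0.5 FPKM in the pellet alone, so its side is bound up with how it passed. Xist itself was scarce, at 0.0404 and 0.0786 FPKM. Whether these pseudogene signals belong to longer transcripts from Jpx or Ftx was not tested, and the strand of the fragments is not in the table.

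**Figure D5:**
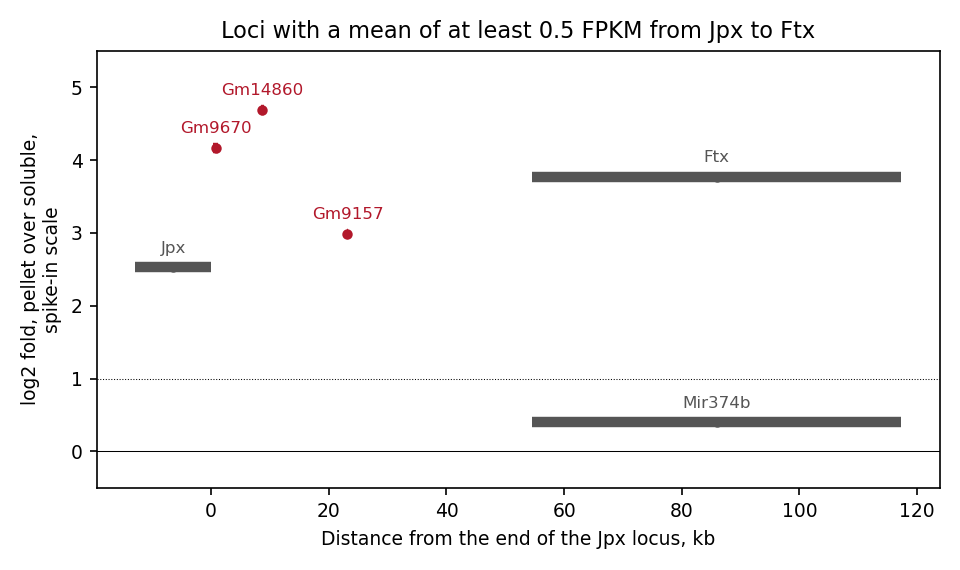
Log2 fold, pellet over soluble on the spike-in scale, of the loci from Jpx to Ftx that reached a mean of 0.5 FPKM, drawn at their distance in kb from the end of the Jpx locus. Bars span each locus and dots mark its centre; the 3 pseudogenes (red) lie at 2.99, 4.17 and 4.69, Jpx at 2.53 and Ftx at 3.77, while Mir374b, which shares its locus with Ftx, lies at 0.40.

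Neighbouring members had the same side. The data held 5 groups of members less than 50000 bp apart, 11 members in all, and in all 5 groups the members were all at least 2-fold higher (3 groups) or all at least 2-fold lower (2 groups). One of the higher groups is that between Jpx and Ftx. The others are Gm8296 (4.95) with Gm7063 (2.88) on chromosome 1, and Gm14761 (4.18) with Gm14766 (3.75) on chromosome X. The latter both lie within the RefSeq span of 5430427O19Rik, a protein-coding gene. The lower groups are Gm5829 (-1.498) with Gm5256 (-1.54) on chromosome 1, and Gm12989 (-1.52) with Gm12988 (-1.99) on chromosome 4. These groups were found in the data and named after their values were seen.

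Pellet-enriched members lay nearer to other expressed loci than the rest. The nearest other locus that reached the level minimum was at a median distance of 9773 bp from the 59 higher members, 64940 bp from the 88 within 2-fold and 61356 bp from the 107 lower ones. It was within 10000 bp for 30 of the 59 higher members (50.8%) and 25 of the 107 lower ones (23.4%). Of those 30 neighbours 18 were themselves higher in the pellet and 1 was lower, with a median log2 fold of 1.22. The 25 neighbours of lower members had 8 higher and 5 lower, with a median of -0.18. For members within 2-fold, 25 had a neighbour at that distance, of which 7 were higher and 2 lower (median 0.52). Over all loci at the level minimum 31.9% were higher and 10.5% lower. The share of higher neighbours beside lower members was thus near that of all loci. Members and neighbours are not independent samples, and these distances are a description with no test.

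The annotation sorted the members in a similar way. No member overlapped a protein-coding locus of the table by position, but 15 overlapped the span of a RefSeq protein-coding gene, and of these 7 were higher and 4 lower (median 0.75). Among them were Gm13071 in Lzic (1.57), Gm7664 in the zinc finger gene Zfp934 (1.78) and Gm6478 in Gm3325 (5.99). The 239 outside such spans had 52 higher and 103 lower (median -0.77).

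RefSeq records of their own were matched for 196 members. Of these 185 are pseudogenes with 30 higher and 88 lower, 10 are transcribed pseudogenes with 2 higher and 3 lower, and 1 is AA414768. The 58 members without a matched record had 27 higher and 15 lower, with a median of 0.64. The transcribed pseudogenes include Rps15a-ps4 and Rps19-ps3, as well as Gm6548 (7.37 soluble and 3.68 pellet FPKM, 0.75), which lies within the span of Eif2ak2, the double-stranded RNA sensor kinase gene. Rpl17-ps10, also listed as transcribed, had -1.74 (4.77 and 0.424 FPKM), beside -1.25 for Rpl17.

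Locus length showed no steady relation to the balance. The median locus was 497 bp, and lengths ran from 105 to 243245 bp. The longest were Gm6984, whose own RefSeq record spans 1729 bp, and Gm6478, with 119463 bp in the table and 835 bp in RefSeq. Of the 128 under 500 bp, 33 were higher and 60 lower, and of the 126 of at least 500 bp, 26 were higher and 47 lower. Of the 36 from 1000 bp to under 2000 bp, 7 (19.4%) were lower, 5 higher and 24 within 2-fold, against 46.5% lower of the 71 from 500 bp to under 1000 bp and 47.3% of the 112 from 200 bp to under 500 bp. The 19 loci of at least 2000 bp had 3 higher and 7 lower, and the 16 under 200 bp had 6 higher and 7 lower. The Spearman correlation of length and fold was 0.09 across the 254 members.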

How the data were processed

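The deposited table gives FPKM per locus for each fraction, which the authors pooled over 3 libraries. Beside them stand a pellet signal rescaled by the authors and its total with the soluble value, the ratio of rescaled pellet to soluble value deposited as chromatin enrichment, and the deposited log10 of the total and of that ratio. The submitters' processing notes name the mm10 build and, as tools, Cufflinks and Cuffdiff, HISAT2, bedtools and SAMtools. Not given in the sources used here are versions, settings and how fragments matching several copies were placed. Values down to 3.66e-09 FPKM show estimates, not whole reads.

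Of 30687 lines, 1945 repeated identifiers were dropped. Table starts count from 0, so 1 was added. Folds were recomputed from FPKM as log2 of pellet times 3.37 over soluble, with no pseudocount, and called at 2-fold. Python 3.11.15 and pandas 2.3.3 were used, and the functions were tested on simulated data. RefSeq GRCm38.p6 gave spans and synonyms, and 247 of 254 identifiers matched a symbol. A current symbol that the table gives to another locus was not used for a parent.

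Members and lists were chosen with earlier results of these data known. Members named by rule had a mean of at least 1 FPKM and the 10 highest or lowest folds, the 10 highest levels, or the highest or lowest fold of a parent or parent family with at least 3 members; 3 on each side of the level minimum and all parents of named members were added. Others were named after their values were seen, for position, annotation or a shared parent. Alternatives varied scale, factor, level minimum, pseudocount, threshold, overlap and parent family. Parents from sequence were not run, since no genome was used here.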

Additional observations from a re-analysis of the deposited data

How the results depend on the processing

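On the FPKM scale 34 members were higher and 193 lower, with medians of -2.51 for the members and -0.42 for processed pseudogenes sharing a locus with a protein-coding gene. With a mean of at least 0.1 FPKM, 170 were higher and 249 lower, and the median copy-minus-parent difference was -0.017. At 1 FPKM 32 were higher, with medians of -0.88 (members) and 0.22 (shared loci). At 5 FPKM 3 were higher and 29 lower, with medians of -1.51 and -1.56 and a parent difference of -0.12. With no minimum, 559 of 1561 were higher and 462 lower, with medians of -0.0072 and 0.70 and a parent difference of 0.11. Requiring 0.5 FPKM in both fractions left 36 higher and 40 lower, with medians of -0.31 and 0.37. A pseudocount of 1 FPKM gave 58 lower, medians of -0.45 and 0.86 and a parent difference of -0.034. At 4-fold 19 were lower. Loci of at least 500 bp, chosen after seeing the data, gave 26 higher and 47 lower, with fewer loci entering. The cause of the other shifts was not tested, apart from the constant factor between scales and the number of loci entering. The counts and medians moved little with the spike-in factor from the median ratio, without ribosomal protein copies (57 higher, 93 lower), or, as alternatives also chosen after seeing the data, without chromosome X (44 higher, 94 lower) or without overlap with other loci or RefSeq coding spans. No paired analysis was possible because each fraction is deposited as 1 pooled value, so no replicate could be left out either. Depth is unknown, and below a mean of 0.5 FPKM the scatter of the spike-ins widens. Folds of members scarce in 1 fraction are limited too, by an amount that was not measured.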
